A study of Homo sapiens with 2 samples.

Results

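The inflammasome genes of SU-DHL-1 cells were described as a set of 10: the sensor genes NLRP3, NLRP1 and AIM2, the adaptor gene PYCARD, the inflammatory caspase genes CASP1, CASP4 and CASP5, the pore gene GSDMD, and the cytokine genes IL1B and IL18. They were chosen by their known role, at a time when the readings of CASP5 and NLRP3 in this same comparison were already known, so all values below are a description and none is a test. All 10 were among the 19775 genes with at least 1 probe set of their own on the array, and they were read by 22 probe sets. SU-DHL-1 is a permanent line derived from anaplastic large cell lymphoma (ALCL), a T-cell lymphoma, and carries the fusion gene NPM1-ALK. The cells were electroporated either with an siRNA against HLX, an NKL homeobox gene that is aberrantly active in ALCL lines (siHLX), or with the negative control siRNA (siCTR). Total RNA of each was read on 1 Affymetrix HG-U133 Plus 2.0 array, to look for genes downstream of HLX. With 1 array per siRNA there was no replicate error, and the small number of arrays limits the precision of every value.

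Inflammasomes are protein platforms that assemble in the cytosol when a sensor meets microbial products or cell damage. NLRP3 responds to disturbed membranes and ion loss, NLRP1 to proteases and other stresses, and AIM2 to double-stranded DNA, and the adaptor PYCARD (ASC) links sensors to caspase-1. Caspase-1 matures the cytokines IL-1beta and IL-18 and cleaves gasdermin D, whose fragment perforates the plasma membrane, while caspase-4 and caspase-5 bind bacterial lipopolysaccharide and cleave gasdermin D without a sensor. The system is best known from monocytes and macrophages, in which the genes of NLRP3 and IL-1beta are induced by a priming signal through NFkB.

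CASP5 and NLRP3 stood out in opposite directions, whereas AIM2, GSDMD and both probe sets of CASP4, the closest paralog of CASP5, differed by at most 0.12 on the log2 scale. CASP5 was read at 0.20 times its control level on the siHLX array and NLRP3 at 2.23 times on its brightest probe set. The upstream sequences of CASP5, of its neighbouring paralog CASP4 and of NLRP3 are therefore shown, taken from RefSeq for GRCh38.p14. Each run holds the 250 bases before the annotated start of the gene, 5′ to 3′ on the strand of the gene. Capitals mark each TAAT, the core that many homeodomains bind, on either strand, so that ATTA is marked as well. CASP5 lies on the minus strand at chr11:105023169-105023418, CASP4 on the minus strand at chr11:104968575-104968824 and NLRP3 on the plus strand at chr1:247415923-247416172.
CASP5: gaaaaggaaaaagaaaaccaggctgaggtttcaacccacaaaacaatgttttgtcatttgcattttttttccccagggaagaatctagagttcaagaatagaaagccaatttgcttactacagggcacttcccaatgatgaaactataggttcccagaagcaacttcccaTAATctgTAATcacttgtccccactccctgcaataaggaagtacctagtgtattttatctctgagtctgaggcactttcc
CASP4: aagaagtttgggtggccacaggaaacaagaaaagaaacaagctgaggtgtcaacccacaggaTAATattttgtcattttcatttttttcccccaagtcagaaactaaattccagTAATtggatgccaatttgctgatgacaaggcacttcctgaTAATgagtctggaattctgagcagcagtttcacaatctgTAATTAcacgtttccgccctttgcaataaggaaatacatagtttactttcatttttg
NLRP3: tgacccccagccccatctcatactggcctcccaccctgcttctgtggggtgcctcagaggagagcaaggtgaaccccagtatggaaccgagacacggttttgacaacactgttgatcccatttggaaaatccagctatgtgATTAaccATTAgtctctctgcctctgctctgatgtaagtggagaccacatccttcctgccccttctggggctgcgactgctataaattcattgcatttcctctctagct

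Aligned end to end, the CASP4 and CASP5 windows were identical at 174 of 269 aligned columns (64.7%), while CASP5 and NLRP3 shared 43.3% in the same kind of alignment. TAAT occurred 2 times in the CASP5 window, 5 times in that of CASP4 and 2 times in that of NLRP3. Of all 35116 windows of this length, 47.4% held it at least 1 time. The longer palindrome TAATTA, in which TAAT and its reverse overlap, was in the CASP4 window and not in those of CASP5 and NLRP3, and was in 4.35% of all windows. The STAT palindrome TTCNNNGAA was found 1 time each for CASP5 and IL1B, and in 6.57% of all windows. Windows were matched for 6 members, and those of AIM2, IL1B and PYCARD held 2, 2 and 0 copies of TAAT. A match of letters describes the sequence and does not show that a factor binds there.

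HLX, the target of the siRNA, read 8.15 on the log2 scale with siCTR and 7.70 with siHLX on its only probe set. The difference was -0.45, or 0.73 times the control level, and set to equal poly-A spike controls it was -0.16. These controls, added before labelling, read lower on the siHLX array in 23 of 24 probe sets (mean -0.29, SD 0.18). Scaling by them moved the median difference of all genes from -0.01 to 0.28, so every difference is relative to the bulk of genes, and NLRP1 and IL1B, slightly lower on their brightest probe sets, then lay above 0. The spread of differences widened towards dim probe sets, with an SD of 0.12 at levels from 10 upwards, 0.20 between 7 and 10, and 0.39 between 7 and the level threshold of 4.865. This threshold is the median level of all probe sets that were not controls. A probe set whose mean over both arrays lay below it is called dim here, which does not show that the transcript was missing. Of the 22 probe sets, 18 lay above the threshold, and 8 of the 10 genes had at least 1 such probe set. PYCARD and IL18 were dim on their only probe sets. The mean levels closest to the threshold were 4.935 on a probe set of NLRP1 and 4.965 on that of CASP5 above it, and 4.66 on a probe set of IL1B below it.

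**Figure D1:**
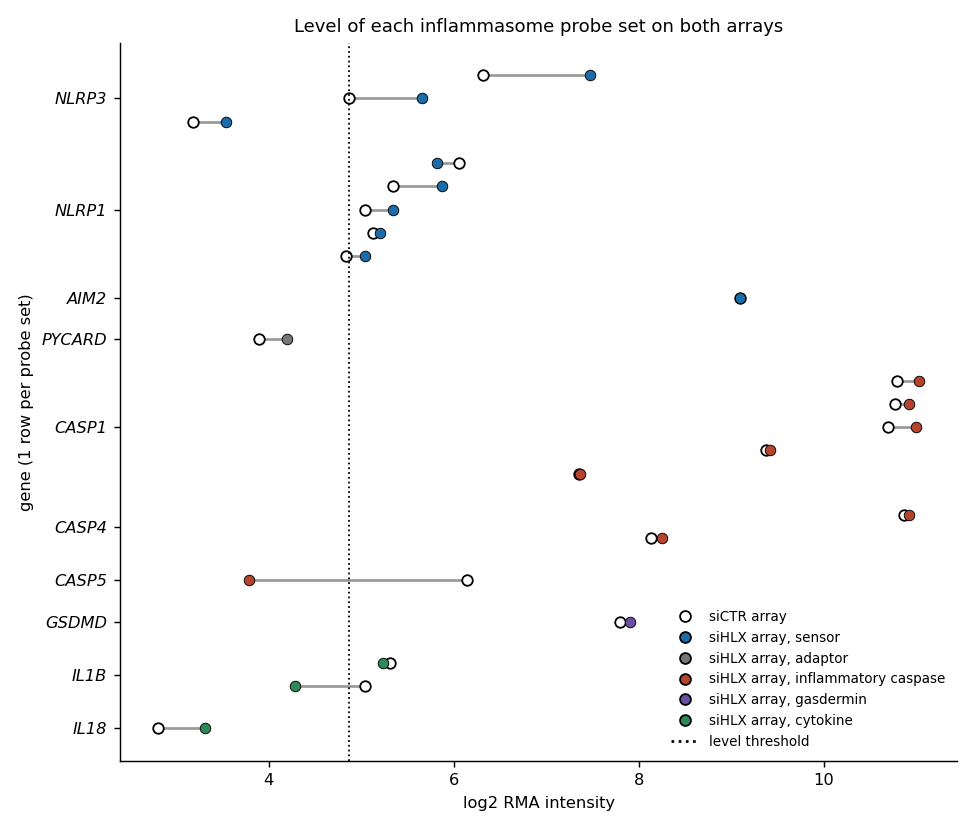
Log2 RMA intensity (x axis) of the 22 probe sets of the inflammasome genes (y axis, 1 row per probe set); open circles are the siCTR array, filled circles the siHLX array, and the dotted line is the level threshold of 4.865. CASP5 crosses the threshold from 6.14 to 3.79, NLRP3 moves to the right on all 3 probe sets, and AIM2, CASP4 and GSDMD hardly move.

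Of the 22 probe sets, 17 read higher with siHLX (77.3%), 4 lower and 1 equal, beside 46.8% higher among all probe sets paired with 1 gene. The 22 come from 10 genes and are not independent. A difference of 2-fold was reached by 1 probe set upwards, that of NLRP3, and by 1 downwards, that of CASP5. Among all 41091 probe sets paired with 1 gene, 0.635% reached 2-fold upwards and 0.696% downwards. Taking the brightest probe set of each gene, 4 of the 8 genes above the threshold were higher, 3 were lower and AIM2 was equal. Their median difference was 0.03, beside -0.01 for all 12135 genes above the threshold. NLRP3 and CASP5 were again the genes at 2-fold, and of all genes above the threshold 0.445% reached 2-fold upwards and 0.387% downwards. Since CASP5 and NLRP3 were known before the set was put together, nothing is read from these counts about the set.

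Among the sensors, NLRP3 was the gene that differed. Its brightest probe set read 6.31 with siCTR and 7.47 with siHLX, which is 1.16 higher. The next read 4.87 and 5.65, a difference of 0.78, and the dimmest, below the threshold, read 3.18 and 3.54, a difference of 0.36. All 3 probe sets of NLRP3 thus pointed upwards, with a mean of 0.77 and an SD of 0.40 between them. These are repeat readings of the same RNA by different probes, and their SD is technical. Within 0.5 log2 units of the level of the brightest, 0.0755% of the named probe sets lay as far up, against 4.52% for the next and 11.8% for the dimmest.

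NLRP1, a sensor of epithelia and blood cells, was read by 5 probe sets close to the threshold that did not agree in direction. The brightest read 6.05 with siCTR and 5.82 with siHLX (-0.23). The other 4 were higher with siHLX, by 0.08 to 0.53, and the largest of these belonged to a probe set that read 5.34 and 5.87. The mean over all 5 was 0.18 with an SD of 0.28, so the mean of NLRP1 was smaller than the spread between its probe sets. AIM2, the DNA sensor, read 9.09 on both arrays. At its level the SD of all named probe sets was 0.20, so AIM2 gives a bright reading at which no difference was seen. PYCARD, the adaptor, read 3.89 with siCTR and 4.20 with siHLX. This difference of 0.31 came from a dim probe set, and 22.3% of probe sets of like level reached as far up.

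The inflammatory caspase genes held both readings that hardly differed and the lowest difference of the set. CASP1, the caspase that matures IL-1beta and IL-18, was read by 5 probe sets, all above the threshold. The brightest read 10.79 with siCTR and 11.03 with siHLX (0.24), the next 10.77 and 10.92 (0.15), and the third 10.69 and 10.99 (0.30). The remaining probe sets read 9.37 and 9.42 (0.05) and 7.35 and 7.36 (0.01). All 5 lay above 0, with a mean of 0.15 and an SD of 0.12. The probe sets of CASP1 differed by their design. The 3 brightest, at 0.15 to 0.30, carry the suffixes _s_at or _x_at, which mark probes that can also match other transcripts, as does the fourth at 0.05, whereas the probe set without such a suffix gave 0.01. A further probe set, annotated to CASP1 and CARD16 together and so not counted, read 9.64 and 9.63, a difference of -0.01. CARD16, which encodes a protein close to the CARD of caspase-1, read 8.19 and 8.56 on its brighter probe set (0.37) and 2.80 and 2.76 on its dim one (-0.04). How the signals of CASP1 and CARD16 divide between these probe sets was not tested.

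CASP4, the caspase that binds lipopolysaccharide in many cell types, read 10.86 with siCTR and 10.92 with siHLX on its brighter probe set and 8.13 and 8.25 on the other. The differences of 0.06 and 0.12 were small, and 30.3% and 25.6% of probe sets of like level reached as far up. CASP5, the other lipopolysaccharide-binding caspase, read 6.14 with siCTR and 3.79 with siHLX on its only probe set. This gave -2.35, or 0.20 times the control level. It was the lowest among all genes above the threshold, and at its level 0.0156% of 6423 probe sets lay as far down, which is the probe set of CASP5 itself. On the siHLX array CASP5 was below the threshold, so it passed only through the siCTR array, on which it was high. The size of the fold is therefore uncertain, and nothing is read from this rank or this share. With no further probe set of CASP5 and no further array, the reading could not be compared with a repeat.

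**Figure D2:**
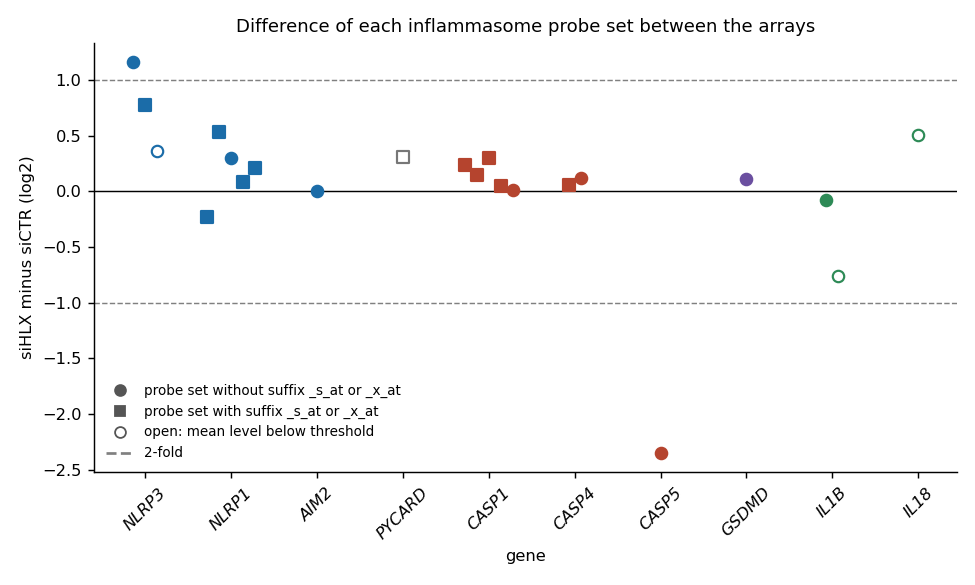
The y axis gives siHLX minus siCTR in log2 units and the x axis the 10 genes, with 1 symbol per probe set; squares carry the suffix _s_at or _x_at, open symbols are dim, and dashed lines mark 2-fold. CASP5 lies at -2.35 while the 2 probe sets of CASP4 and the 5 of CASP1 lie between 0.01 and 0.30, and the 3 of NLRP3 lie between 0.36 and 1.16.

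GSDMD, which encodes the pore-forming substrate of these caspases, read 7.79 with siCTR and 7.90 with siHLX (0.11), and 29.1% of probe sets of like level reached as far up. IL1B, the gene of pro-IL-1beta, read 5.31 and 5.23 on its brighter probe set, a difference of -0.08. Its dim probe set read 5.04 and 4.28, a difference of -0.76, and 6.04% of probe sets of like level reached as far down. Both readings of IL1B lay below 0 but differed widely in size, with an SD of 0.48. IL18, the gene of pro-IL-18, read 2.80 with siCTR and 3.31 with siHLX. This difference of 0.51 was read near the lower end of the scale, where 3.57% of probe sets of like level reached as far up. IL1B thus read slightly lower and NLRP3 higher with siHLX. Once the poly-A controls were set equal, the brighter probe set of IL1B lay at 0.21 and the median of all genes at 0.28. Neither protein processing nor secretion was measured by these arrays.

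**Figure D3:**
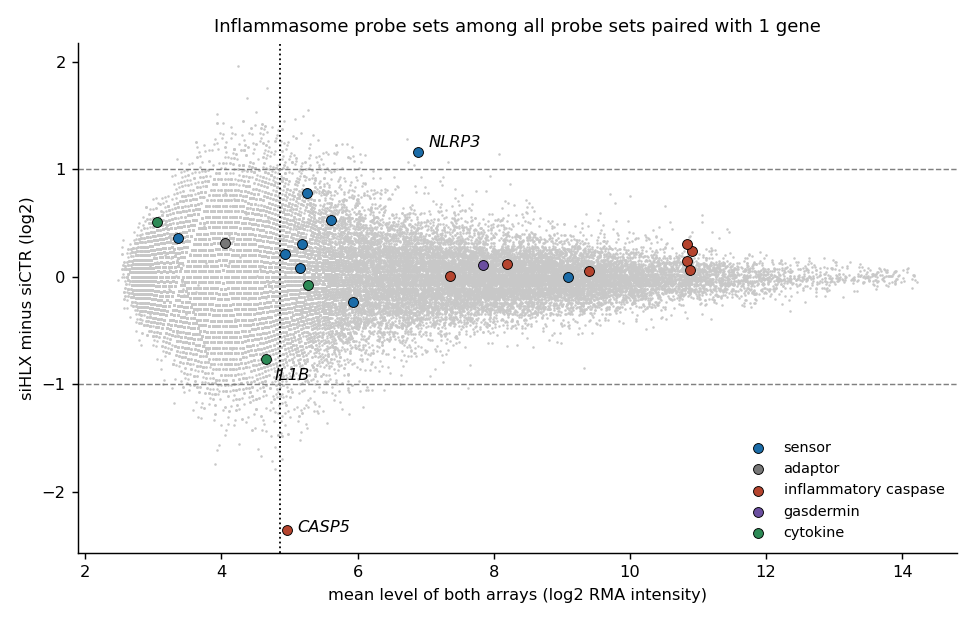
The y axis gives siHLX minus siCTR in log2 units and the x axis the level averaged over the arrays (log2 RMA intensity), for all 41091 probe sets paired with 1 gene (grey) and for the inflammasome genes (coloured by role); 2-fold is dashed and the level threshold dotted. CASP5 lies below all other grey points at its level, and the brightest probe set of NLRP3 lies above nearly all of those at its own. CASP5 passed the threshold only through the siCTR array. Both genes were known before the set was put together, so nothing is read from these positions.

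CASP5 lies between CASP4 and CASP1 among the protein-coding genes of chromosome 11, with CARD16 and CARD18 on the far side of CASP1. The adjoining genes did not share its reading. Against -2.35 for CASP5 stood 0.06 for CASP4, 0.24 for CASP1 and 0.37 for CARD16 on their brightest probe sets, all above the threshold. CARD18, an inhibitor of caspase-1 made only of a CARD, was dim and read 3.09 and 3.27 (0.18). CASP12, a pseudogene in most people that belongs to the same cluster, was dim as well and read 4.45 with siCTR and 3.31 with siHLX. Its difference of -1.14 was picked out after the values had been seen, and 0.514% of probe sets of like level reached as far down. GBP3, a dim gene outside the cluster, went the other way, with 3.59 on siCTR and 4.78 on siHLX (1.19). At its level 0.716% of probe sets reached as far up.

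**Figure D4:**
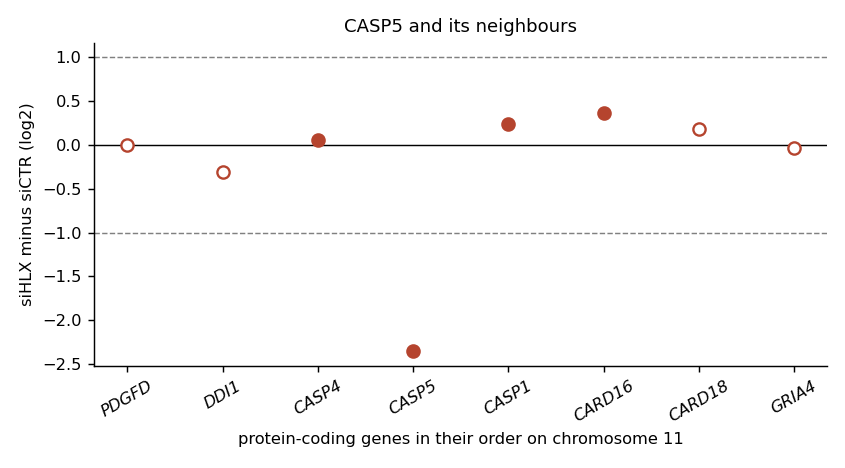
The y axis gives siHLX minus siCTR in log2 units for CASP5 and adjoining protein-coding genes, on the x axis in their order on chromosome 11 (not to distance), with the brightest probe set of each; open circles are dim. CASP5 at -2.35 is the gene far from 0, while CASP4, CASP1 and CARD16 lie at 0.06, 0.24 and 0.37.

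Around these 10 genes, 7 further lists of the pathway held 80 genes, of which 73 had a probe set of their own and 48 lay above the threshold. Of the 48, 29 were higher, 16 lower and 3 equal, with a median of 0.06. Of all 12135 genes above the threshold, 5755 were higher (47.4%), which is the background for the counts of each list below. Among the 48, 2-fold was reached by 1 gene upwards and by 0 downwards. The gene at 2-fold was CASP10, a caspase of death receptors, which read 4.40 and 5.71 on its brightest probe set (1.31). The siCTR reading was below the threshold, so CASP10 passed only through the array on which it was high, and the size of its fold is uncertain. Its other probe set above the threshold read 5.0 and 4.78 (-0.22), so CASP10 had no common direction. CASP8, the initiator caspase of the same receptors, had the lowest difference of the other caspases at -0.04. Among other sensors, 4 of 6 genes above the threshold were higher and 2 lower. NLRP12, a regulator of NFkB in myeloid cells, had 0.55, and MEFV, the gene of the sensor pyrin, had -0.85 at a level of 5.585. IFI16, a DNA sensor related to AIM2, read 11.80 and 11.92 on its brightest probe set, a difference of 0.12. Its other probe sets, also above the threshold, differed by 0.08 and 0.37.

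Genes that license or modulate inflammasomes were higher in 9 of 13 members above the threshold and lower in 4. GBP1, a guanylate-binding protein that coats bacteria for detection by caspase-4, read 7.80 and 8.44 on its brightest probe set. It was higher on all 4 of its probe sets, by 0.64, 0.66 and 0.42 on those above the threshold and by 0.22 on the dim one. TXNIP, a thioredoxin-binding protein reported to activate NLRP3, had the lowest difference of that list at -0.22 on its brightest probe set, while its other probe sets, also above the threshold, read 0.08 and 0.22. NEK7, the kinase that bridges NLRP3 subunits, had 0.14 at a level of 10.07. The NLRP3 sensor and its partner NEK7 thus differed in size, with 1.16 against 0.14. Among the other gasdermins, GSDME, the substrate of caspase-3, had 0.31 and GSDMC -0.54. In the IL-1 family, 6 of 10 ligand and receptor genes were higher and 3 lower. IL1R2, the decoy receptor of IL-1, read 11.13 and 11.49 (0.36) on its brightest probe set and 10.33 and 10.43 (0.10) on the other. IL1RN, the gene of the receptor antagonist, had -0.62 on its brightest probe set, while its dim ones read from -0.61 to 0.45. Priming genes showed 4 higher, 4 lower and 2 equal of 10. LY96, a partner of the lipopolysaccharide receptor TLR4, read 8.13 and 8.71 (0.58), NFKB1 had -0.23, and TLR4 itself was dim on all its probe sets.

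**Figure D5:**
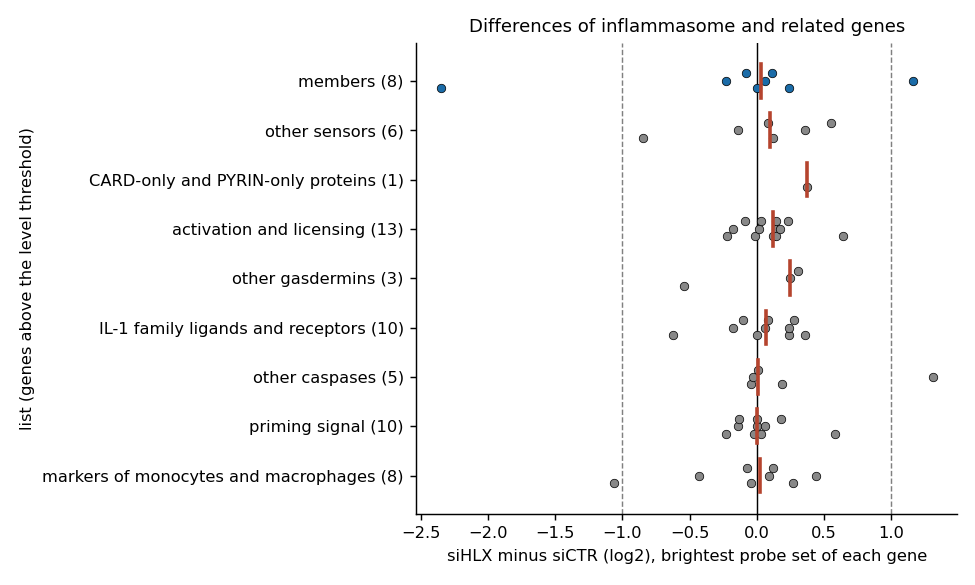
The x axis gives siHLX minus siCTR in log2 units for genes above the level threshold in the inflammasome set, in 7 related lists and among monocyte and macrophage markers (y axis, number of genes in parentheses); points are genes by their brightest probe set, red bars are medians and dashed lines mark 2-fold. CASP5 at -2.35, NLRP3 at 1.16, CASP10 at 1.31 and the marker ITGAM at -1.06 lie beyond 2-fold.

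Because NLRP3 and IL1B are best known from monocytes and macrophages, markers of these cells were read as well. Of 20 markers, 18 had a probe set of their own and 8 lay above the threshold, of which 4 were higher and 4 lower with a median of 0.025. Their summed log2 level was 58.59 with siCTR and 57.91 with siHLX. Without ITGAM, left out after its value had been seen, the other 7 summed to 53.08 and 53.46. ITGAM read 5.51 and 4.45 on its brightest probe set (-1.06), below the threshold with siHLX, and 0.35 on its dim one, and CSF1R was the highest at 0.44. The list was divided in level. VCAN read 11.20 and 11.16, FCER1G 10.48 and 10.57, and CD163 9.31 and 9.43, whereas CD14, LYZ, S100A8, S100A9 and SPI1 were dim. Of 8 markers of ALCL cells, 7 lay above the threshold and CD2 was dim at 3.84 and 3.89, with ALK at 12.47 and 12.45 and TNFRSF8 (CD30) at 9.92 and 9.79, and differences from -0.19 for CD3E to 0.35 for MUC1. According to the paper, its cell lines are authenticated and checked for cross-contamination. Whether other cell types had a part in the readings of NLRP3 and CASP5 was not tested.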

How the data were processed

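Log2 intensities per probe set were used as deposited by the authors, who had RMA background corrected and quantile normalised the spots in R with limma and affy (versions not given in the sources used here). Quantile normalisation equalises the overall brightness of arrays and hides changes shared by most transcripts. Ratios to the sample mean, named in the methods, were not applied in these values. Each of the 2 arrays was grouped by its labelled treatment.

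Probe sets were named where the platform annotation gave exactly 1 gene (41091 of 54613 that were not controls). Entrez identifiers of 41043 were found in the RefSeq gene table of GRCh38.p14, and 0 symbols changed. Differences are siHLX minus siCTR, computed in Python 3.11.15 with pandas 2.3.3. With 1 array per group no test was made. The members and lists were chosen with earlier results of these data known. From the 7 lists and the markers the text names the most positive and most negative gene above the threshold, any at 2-fold, and examples chosen after their values were seen. The subtraction and the choice of brightest probe set were checked on differences shuffled among probe sets of like level. Known shifts had been added to 200 genes above the median level. This check did not cover the lists, the alternatives or the sequence matches. Alternatives were centring on the median, subtracting a lowess on level (fraction 0.2, statsmodels 0.14.6), renewed quantile normalisation, equal poly-A spike controls, a level threshold at the 75th percentile or none, leaving out _s_at and _x_at probe sets, averaging the probe sets of a gene, and a 1.5-fold limit. Upstream windows were aligned with Biopython 1.88.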

Additional observations from a re-analysis of the deposited data

How the results depend on the processing

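The low reading of CASP5 kept its direction and its 2-fold size in every alternative that gave it a value, between -2.36 and -2.06 on the log2 scale. CASP5 has 1 probe set, without suffix _s_at or _x_at, so averaging probe sets and leaving out suffixed ones could only return -2.35. Centring on the median returned -2.35 as well. All alternatives used the same reading, so their range does not stand in for a repeat. NLRP3 lay above 0 in every alternative that gave it a value, between 0.77 and 1.45. Its 3 probe sets all lay above 0, so their average could only lie above 0. Its brightest probe set has no suffix _s_at or _x_at, so leaving out suffixed ones could only return 1.16. Centring on the median returned 1.16 as well, and equal poly-A spike controls raised all genes alike. For NLRP3, too, the alternatives do not stand in for a repeat. Averaging the probe sets of a gene, the count of member genes at least 2-fold higher was 0 instead of 1, since NLRP3 then had 0.77. With the level threshold at the 75th percentile, 7.095, the counts at 2-fold in both directions were 0 for probe sets and 0 for genes, because CASP5 and NLRP3 both lie below that level. With the 1.5-fold limit the counts of probe sets were 2 higher and 2 lower, and with equal poly-A spike controls 2 probe sets were at least 2-fold higher. That scaling also moved the median of member genes from 0.03 to 0.32, and that of all genes from -0.01 to 0.28. NLRP1 ranged from -0.24 to 0.30, and its probe sets did not agree in direction. IL1B ranged from -0.42 to 0.21. It lay above 0 only with equal poly-A spike controls, where the median of all genes was 0.28. With 1 array per group, neither has a settled direction. CASP1 fell to 0.01 without _s_at and _x_at probe sets. No paired analysis was possible because each group held 1 array. Leaving out a replicate was not possible for the same reason. What limits these values is the lack of a second array. Signal near or below the level threshold also limits CASP5, NLRP1, PYCARD, IL18, IL1B and the dimmer probe sets of NLRP3.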
